A study of Mus musculus with 8 samples.

Results

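Mouse intestinal stromal cells that carry a low level of the platelet-derived growth factor receptor Pdgfra (Pdgfra-low cells) were measured by poly-A RNA sequencing after culture in droplets of Matrigel, a basement membrane extract, without organoids. These stromal cells grown alone make up 3 of the 8 libraries of the series and were taken by their column names in the deposited table. The remaining libraries are cocultures with duodenal enteroids and are not compared here. Medium without EGF, R-spondin1 and Noggin was described for the cocultures, and the cells were sorted as GFP-positive and DAPI-negative. Strain, age, sex, genotype, reporter allele, seeding number and culture time of the cells grown alone are not given in the sources used here. Whether the replicates came from separate animals or cultures is also not given.

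Pdgfra-low stroma of the intestine lies beneath the crypts and in the deeper wall, and its CD81-positive subset, the trophocytes, is known as a source of the BMP antagonist Gremlin1 and of R-spondins. BMP signalling drives epithelial cells out of the stem cell state, and R-spondins raise the response to WNT, so both kinds of factor belong to the stem cell niche. Fibroblasts in culture also secrete collagens, proteoglycans and proteases that build and remodel matrix.

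Values are FPKM, fragments per kilobase of transcript and per unit of library size, so the levels of different genes can be set side by side within a library. A gene is called detected at 1 FPKM or more in all 3 libraries. Of 24930 genes in the table, 11539 were detected, 5767 had at least 10 FPKM in all 3 libraries, 598 at least 100 and 33 at least 1000. Another 6220 genes were listed at 0 in all 3. The depth of the libraries is unknown, since the table holds no counts. Relative depth was estimated from genes above 0 and under 0.3 FPKM in replicate 1, as the inverse of their most frequent ratio to replicate 1. It was 0.958 for replicate 2 and 0.798 for replicate 3, with replicate 1 set to 1. The estimate takes that ratio to stand for equal read counts, and only ratios near 1 were searched.

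Replicate 2 stood apart from the others in several measures. Its values summed to 577707 FPKM, against 438585 in replicate 1 and 457418 in replicate 3, although the upper quartile lay between 10.7 and 11.1 FPKM in all 3 libraries. Short transcripts read higher in it: among 6412 genes with a mean of at least 10 FPKM and a known length, the median deviation of replicate 2 from the gene's own mean was 0.51 on the log2 scale for transcripts under 1 kb and -0.26 for those over 5 kb. The same medians were -0.15 and 0.13 in replicate 1 and -0.38 and 0.12 in replicate 3. Xist, the RNA of the inactive X chromosome, had 34.9 FPKM in replicate 2 and at most 0.0370 FPKM in the others, while the Y-linked Ddx3y was listed at 0 in replicate 2 and had 17.1 and 18.8 FPKM in replicates 1 and 3. Replicate 2 is thus the library with female transcripts and comes from another animal than replicates 1 and 3. Whether replicates 1 and 3 came from 1 animal or from separate animals is not given, so what their spread measures is unknown. The labels also give each replicate a different name prefix. Of the 6602 genes with a mean of at least 10 FPKM, 25.4% were highest in replicate 1, 46.9% in replicate 2 and 27.6% in replicate 3, and 24.6%, 30.3% and 45.1% were lowest in them. With each library rescaled to the same total (TPM scaling), 51.4%, 18.0% and 30.7% were highest and 9.83%, 58.5% and 31.7% were lowest, so which library stands highest for a gene can depend on the scaling. Sex, prefix and transcript length cannot be told apart here, and their part in the results below was not tested.

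The 4 markers taken for these cells, Pdgfra, Cd81, Grem1 and Saa3, were all detected. Only Pdgfra is named in the label, and its level was not compared with that of other cells. Pdgfra had 92.3, 101 and 134 FPKM in replicates 1, 2 and 3, a mean of 109 ± 22.1 (SD, n = 3) that placed it at rank 737 by the median of the 3 libraries. Cd81, a tetraspanin of the cell surface, had 208, 266 and 265 FPKM. Grem1, the secreted BMP antagonist Gremlin1, reached 1307, 999.9 and 1343 FPKM, at rank 27 of all genes, and was lowest in replicate 2. Saa3, a serum amyloid A protein of the acute phase response, was the most abundant gene of the table, with 6175, 28812 and 6004 FPKM. Its level in replicate 2 was 4.80 times that in replicate 3, whereas the other 3 markers varied by a factor of 1.28 to 1.46 between the highest and the lowest library. Reads could in part be shared with its relatives Saa1 and Saa2.

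The regions before the start sites of Saa3 and Grem1 are printed below as the 2 most abundant of these markers. Those of Lcn2 and Fos stand beside them because Lcn2 was highest in the same library as Saa3 and Fos is an immediate early gene that varied in another way. Each shows the 250 bases before the start site in RefSeq's table of promoters (GRCm38.p6, a later build than the submitters' mm9), 5′ to 3′ on the gene's own strand, with capitals at matches on either strand to the motifs named after them.
Saa3, chr7:46715677-46715926, minus strand: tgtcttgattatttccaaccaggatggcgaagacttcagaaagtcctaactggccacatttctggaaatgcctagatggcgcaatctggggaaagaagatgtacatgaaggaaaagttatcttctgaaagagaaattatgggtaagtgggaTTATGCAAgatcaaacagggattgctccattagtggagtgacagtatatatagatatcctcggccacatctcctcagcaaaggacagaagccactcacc
Grem1, chr2:113758649-113758898, minus strand: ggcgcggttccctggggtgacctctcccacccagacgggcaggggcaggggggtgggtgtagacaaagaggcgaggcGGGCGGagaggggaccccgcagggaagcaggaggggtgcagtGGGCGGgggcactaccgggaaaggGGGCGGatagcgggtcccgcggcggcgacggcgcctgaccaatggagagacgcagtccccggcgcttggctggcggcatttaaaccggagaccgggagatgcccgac
Lcn2, chr2:32387740-32387989, minus strand: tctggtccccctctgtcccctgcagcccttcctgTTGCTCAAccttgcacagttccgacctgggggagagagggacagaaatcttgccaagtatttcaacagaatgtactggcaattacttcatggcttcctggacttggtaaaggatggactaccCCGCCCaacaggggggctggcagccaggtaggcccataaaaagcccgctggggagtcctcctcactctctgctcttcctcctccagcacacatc
Fos, chr12:85473640-85473889, plus strand: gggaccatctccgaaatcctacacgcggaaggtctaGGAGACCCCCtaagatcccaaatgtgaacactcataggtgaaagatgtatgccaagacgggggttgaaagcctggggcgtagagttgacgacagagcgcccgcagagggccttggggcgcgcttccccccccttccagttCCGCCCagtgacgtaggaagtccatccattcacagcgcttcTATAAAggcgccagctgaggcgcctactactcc
Saa3 and Lcn2 each held 1 match to TTGCNNAA, the C/EBP motif, which was present in 9.56% of 32851 promoter windows of this length. Grem1 held 3 GC boxes, searched as GGGCGG and found in 32.7% of windows, and Lcn2 and Fos held 1 each. No matches overlapped. The Fos window also held 1 TATA box by the letters TATAAA, which 12.4% of windows contain. An NF-kB match, found in 7.25% of windows, lay farther upstream in the Fos window. CArG box letters were absent from these 4 windows and occur in 1.47% of all windows. A match describes the letters and not binding.

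The most abundant transcripts belonged to acute phase and iron storage, translation, matrix and actin. After Saa3 came Eef1a1, the elongation factor that brings tRNA to the ribosome, with 3433, 5178 and 3924 FPKM. Fth1 and Ftl1, the heavy and light chains of the iron store ferritin, stood at ranks 3 and 4. Fth1 had 3648, 8568 and 3296 FPKM and Ftl1 had 3189.7, 3611 and 2770.0 FPKM, so that only the heavy chain was more than 2 times as high in replicate 2 as in the others. Igfbp4, a secreted binder of insulin-like growth factors, had 2209.6, 3456 and 3144 FPKM. Dcn, the small proteoglycan decorin, had 2728, 3304 and 2912 FPKM, a mean of 2982 ± 294 (SD, n = 3). Collagen III (Col3a1), the matricellular protein Sparc and the proteoglycan biglycan (Bgn) followed at ranks 8 to 10.

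Among the 30 genes with the highest medians, 7 encoded cytosolic ribosomal proteins, 4 belonged to the actin list and 11 to the matrix or secreted lists. The ribosomal genes among them were Rplp1, Rps26, Rpl41, Rps27, Rps2, Rpl35 and Rpl10. Gapdh of glycolysis, Tpt1, the peptidyl-prolyl isomerase Ppia, the interferon-induced membrane proteins Ifitm3 and Ifitm2, and the C1 inhibitor Serping1 were also present. Many of these genes have processed pseudogenes with near-identical sequence, which makes the split of their reads uncertain. The 10 most abundant genes held 8.54% ± 2.18 of the summed FPKM and the 100 most abundant held 28.6% ± 4.30 (SD, n = 3). Of the 30 genes, 18 were among the top 30 of all 3 libraries, and 72 genes were among the top 100 of all 3.

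**Figure D1:**
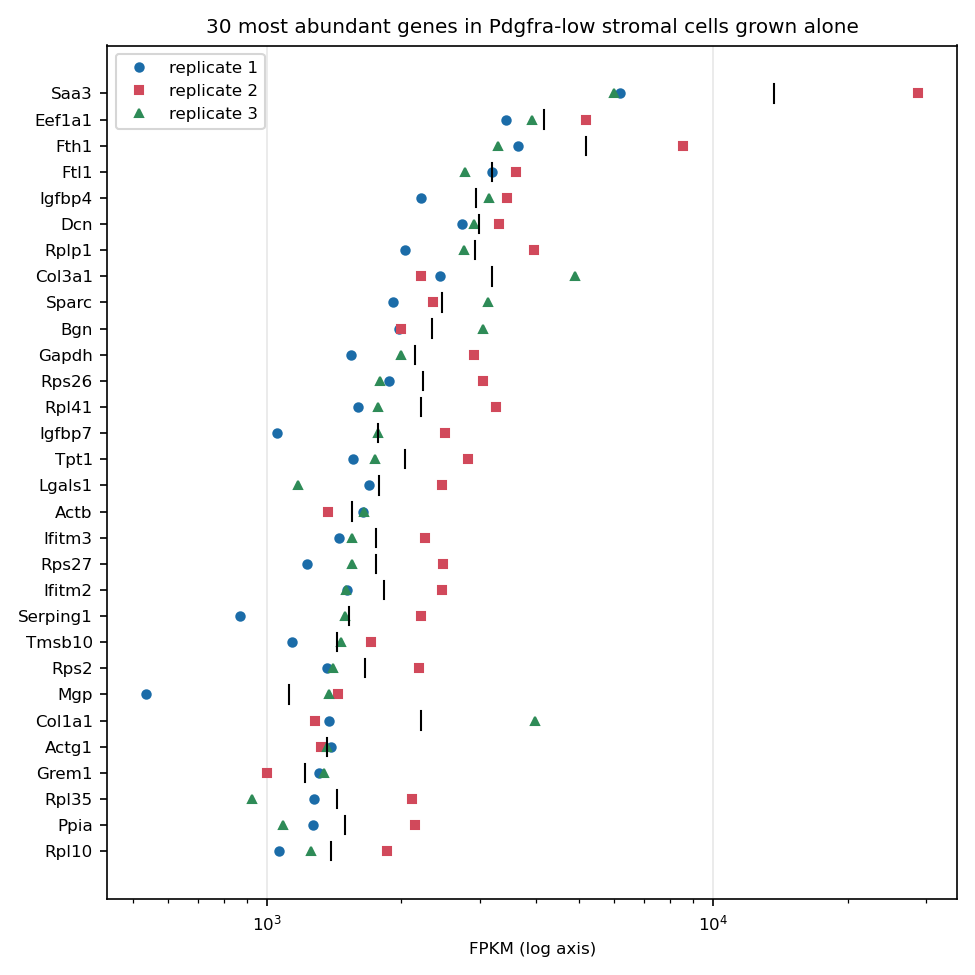
FPKM on a log axis for the 30 genes with the highest median, ordered by that median. Symbols are the 3 libraries of stromal cells grown alone (circle replicate 1, square replicate 2, triangle replicate 3) and the black tick is their mean; Saa3 stands at 28812 FPKM in replicate 2 and at 6175 and 6004 in the others, and Actg1 is nearly the same in all 3.

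Fibroblast genes were present without exception: all 17 of the list were detected and 16 had at least 10 FPKM in every library. Vim, the intermediate filament vimentin, had 693, 626 and 546 FPKM. The surface glycoprotein Thy1 had 125, 144 and 133 FPKM and varied by a factor of 1.15. The second PDGF receptor, Pdgfrb, had 116, 74.9 and 137 FPKM, a level in the range of Pdgfra. S100a4, a calcium-binding protein, differed most within the list, at 123, 66.1 and 16.8 FPKM.

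Of 18 genes listed for trophocytes and adventitial fibroblasts, 15 were detected and 8 had at least 10 FPKM throughout. C3, the central complement component, had 725, 643 and 1269 FPKM and was highest in replicate 3. The surface protein Cd34 had 87.0, 72.5 and 121 FPKM, and the stem cell antigen Ly6a was even across the libraries at 47.8, 47.0 and 50.8 FPKM. Other members were low. Ackr4, a scavenging chemokine receptor used to mark trophocytes, had 3.53, 5.92 and 3.63 FPKM, and Wnt2b had 3.09, 1.94 and 7.90 FPKM. Pi16 and Dpp4, which mark an adventitial progenitor state, stayed under 1 FPKM in every library.

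Transcription factors of the gut mesenchyme were expressed at moderate levels, and 37 of 54 listed were detected. The inhibitors of helix-loop-helix factors Id3 and Id1, which are known targets of BMP signalling, had 245, 482 and 322 FPKM and 64.3, 128 and 34.4 FPKM. Sox4 had 132, 109 and 109 FPKM and Hand2 had 69.2, 125 and 122 FPKM. Foxf1 and Foxf2, forkhead factors of visceral mesoderm, averaged 52.9 ± 4.48 and 51.1 ± 7.54 FPKM (SD, n = 3). Nkx2-3, a homeobox factor of gut and spleen mesenchyme, had 48.6, 48.8 and 44.0 FPKM. Of the 30 members with a mean of at least 10 FPKM, Foxf1 and Nkx2-3 were the 2 with a ratio of highest to lowest library of at most 1.2, or 6.67%, against 20.0% of all genes at that level. The stomach factor Barx1 had 0.0373 FPKM in replicate 1 and was listed at 0 in the others, and the epithelial factors Cdx2 and Pdx1 were listed at 0 in all 3.

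HOX genes, whose order along each cluster follows position along the body axis, were detected mainly from the lower-numbered parts of the clusters. Detected genes included Hoxa2 to Hoxa5, Hoxb2 to Hoxb9 and, of the Hoxc cluster, Hoxc4, Hoxc5, Hoxc6 and Hoxc8. None of the 9 Hoxd genes was detected, although Hoxd8 had 8.47 and 3.94 FPKM in replicates 1 and 2. By the median, Hoxc6 was highest at 36.3, 36.7 and 26.8 FPKM and Hoxb6 next at 36.1, 39.4 and 22.6 FPKM, while Hoxb3 had the highest level in replicate 3, 42.3 FPKM. Hoxa4 and Hoxa5 were lowest in replicate 1, with 4.53 and 6.48 FPKM there and at least 8.76 and 18.5 FPKM in the others. HOX transcripts of one cluster overlap each other, and the strand setting of the quantification is not given.

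Genes that define other cells of the gut wall were mostly near 0. In bulk RNA, fewer cells of a type and less RNA per cell cannot be told apart. The epithelial adhesion molecule Epcam had at most 0.0581 FPKM and the keratin Krt8 at most 0.0848 FPKM. Summed over 18 epithelial genes the level was 138, 215 and 309 FPKM, nearly all of it from Smoc2, a matricellular protein also made by fibroblasts, with 116, 200.5 and 292 FPKM. The leukocyte marker Ptprc had at most 0.0508 FPKM, and the 18 immune genes summed to 71.5, 137 and 93.8 FPKM, most of it Lyz2 and Cd14. The 12 endothelial genes held 0.00139%, 0.00190% and 0.00220% of the summed FPKM, with Pecam1 at most 0.191 FPKM. The mesothelial list was led by Wt1, with 2.30, 16.9 and 18.4 FPKM, and Upk3b was listed at 0. The Kit receptor of interstitial cells of Cajal had at most 0.312 FPKM, but 4 of the 6 genes of that list were detected, among them Gucy1b1 with 33.7, 34.5 and 59.7 FPKM. Of 10 glial and neuronal genes 8 were under 1 FPKM in every library, Sox10 among them, and Tubb3 had 28.0, 33.1 and 21.4 FPKM. All 6 erythroid genes were under 1 FPKM in every library.

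Contractile genes were an exception. Acta2, the smooth muscle actin that marks myofibroblasts, had 570.2, 334 and 668 FPKM, and Tagln had 420.4, 406 and 532 FPKM. Of 14 genes of the smooth muscle and myofibroblast list, 12 were detected and 9 had at least 10 FPKM throughout. Actg2, the enteric smooth muscle actin, had 307, 129 and 279 FPKM and calponin (Cnn1) had 57.6, 43.6 and 67.9 FPKM. Mylk, the myosin light chain kinase, had 51.6, 43.5 and 90.8 FPKM. Myh11, the smooth muscle myosin, had 5.05, 2.26 and 20.0 FPKM and desmin (Des) had 0.227, 4.92 and 5.18 FPKM. Genes of telocytes, the Pdgfra-high cells beneath the epithelium, were split. F3, tissue factor, had 190.0, 199 and 266 FPKM, whereas the telocyte factor Foxl1 had 0.220, 0.214 and 0.216 FPKM and the BMP ligands Bmp5 and Bmp7 stayed under 1 FPKM in every library. Pericyte genes were led by Rgs5, with 18.0, 47.2 and 69.9 FPKM, while Cspg4 had 0.691, 0.584 and 2.62 FPKM. Of adipocyte genes, the lipase Lpl had 175, 243 and 302 FPKM and Pparg was even at 22.0, 22.7 and 22.9 FPKM, but Adipoq had 1.94, 0.659 and 0.519 FPKM.

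**Figure D2:**
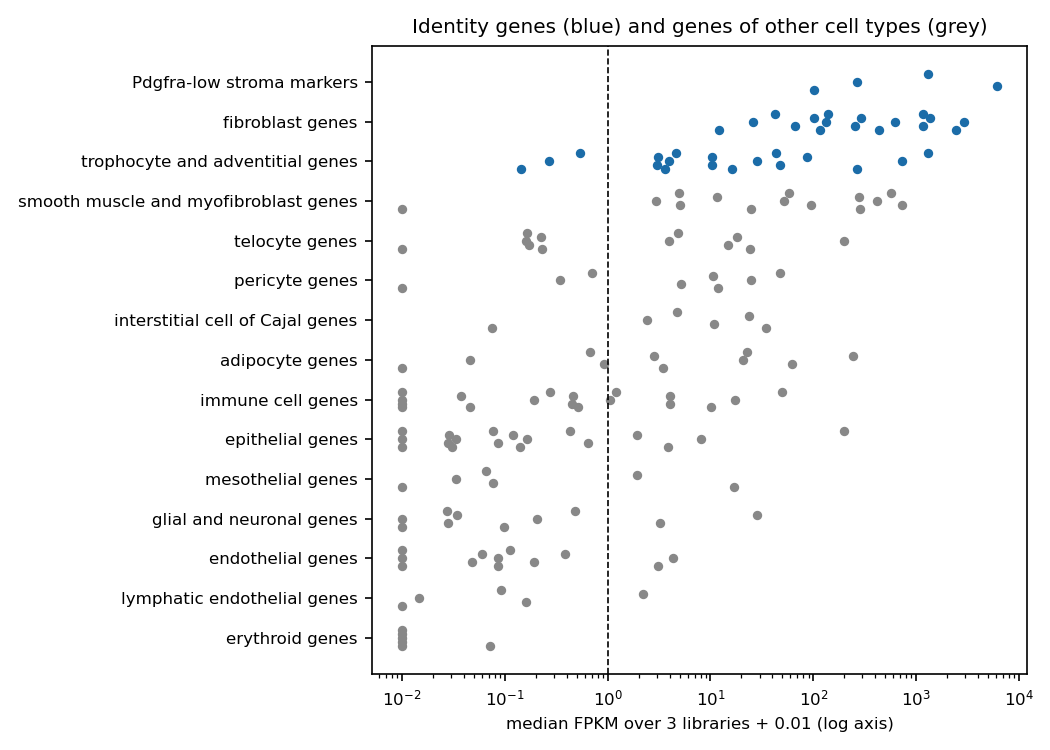
Median FPKM over the 3 libraries plus 0.01, on a log axis, for every gene of the identity lists (blue) and of the lists of other cell types (grey); each point is a gene and the dashed line marks 1 FPKM. All 17 fibroblast genes lie right of the line, while 10 of 12 endothelial, 13 of 18 epithelial and all 6 erythroid genes were under 1 FPKM in every library.

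Secreted factors made up 7.03% ± 2.37 of the summed FPKM (SD, n = 3), with 5.49% in replicate 1, 9.76% in replicate 2 and 5.85% in replicate 3. Of 259 listed genes, 151 were detected and 33 had at least 100 FPKM in all 3 libraries. Saa3 alone held 1.41%, 4.99% and 1.31% of the 3 libraries, and without it the secreted lists averaged 4.59%.

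WNT and R-spondin transcripts were modest. Of 19 WNT ligands, 5 were detected and 12 were under 1 FPKM in every library. Wnt5a, a ligand of the noncanonical branch, was highest at 19.3, 14.7 and 18.0 FPKM, followed by Wnt4 at 7.02, 19.1 and 8.69 FPKM. Rspo1 had 43.4, 74.0 and 60.3 FPKM and Rspo3 had 34.3, 58.7 and 43.3 FPKM, both lowest in replicate 1 and highest in replicate 2, except that Rspo1 was highest in replicate 3 with TPM scaling. Rspo2 had 1.89, 1.08 and 4.06 FPKM and Rspo4 was listed at 0. WNT antagonists were far more abundant: Sfrp1, a secreted frizzled-like protein, had 794, 575 and 1033 FPKM and Dkk3 had 137, 166 and 182 FPKM, while the other 11 members averaged under 20 FPKM each.

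BMP antagonists were expressed above BMP ligands. The 14 antagonists summed to 2115, 1615 and 2053 FPKM and the 16 ligands of the BMP and GDF list to 333, 332 and 322 FPKM. Besides Grem1, the follistatin-related Fstl1 had 328, 287 and 319.5 FPKM and Twsg1 had 83.5, 71.9 and 72.5 FPKM, both within a factor of 1.2. Nbl1 differed more, at 246, 137 and 82.9 FPKM, and Chrdl2 was highest in replicate 3, at 137 FPKM against 40.8 and 43.5 FPKM. Among ligands, Bmp4 was even at 27.1, 25.0 and 26.4 FPKM and Bmp2 had 74.4, 44.6 and 26.7 FPKM. Bmp1, which despite its name is a procollagen protease, had 166, 171 and 179 FPKM and supplied most of the remaining sum.

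Ligands of the TGF-β family were led by Tgfb1, with 70.5, 55.4 and 45.5 FPKM. Tgfb3 had 23.5, 25.1 and 51.8 FPKM and Tgfb2 had 9.23, 5.23 and 8.19 FPKM. The latent TGF-β binding proteins Ltbp3 and Ltbp2, which hold the ligand in the matrix, were expressed above the ligands, at 107, 79.6 and 129 FPKM and at 106, 71.9 and 65.7 FPKM.

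Growth factors for epithelium and vessels were also transcribed. Ereg, the EGF receptor ligand epiregulin, had 179.8, 224 and 145 FPKM, far above neuregulin 1 (Nrg1) at 24.2, 30.7 and 14.3 FPKM and amphiregulin (Areg) at 14.6, 18.4 and 9.19 FPKM. Egf itself had at most 0.429 FPKM. Hgf had 126, 117 and 56.8 FPKM and Fgf7 had 93.8, 117 and 53.2 FPKM, and all 5 FGF and HGF ligands with a mean of at least 10 FPKM were lowest in replicate 3, as were 45.1% of all genes at that level. With TPM scaling 3 of the 5 were lowest there, or 60%, against 31.7% of all genes. Igf1 and Igf2 were highest in replicate 3, Igf1 at 106, 142 and 279 FPKM and Igf2 at 73.3, 61.0 and 294 FPKM. Their binding proteins Igfbp4 and Igfbp7 were more abundant than either ligand in every library. Vegfa had 116, 161 and 144 FPKM, and the lymphatic growth factors Vegfd and Vegfc had 87.9, 63.5 and 112 FPKM and 43.3, 36.3 and 19.4 FPKM.

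Chemokines and acute phase genes formed the inflammatory part of the secreted list. Of 36 chemokines, 14 were detected and 5 had at least 100 FPKM throughout. Cxcl5, which attracts neutrophils, had 432, 1098 and 403 FPKM and the monocyte chemokine Ccl2 had 288, 626 and 220.4 FPKM, both highest in replicate 2. Cxcl12, the ligand of Cxcr4, ran the other way with 455, 297 and 592 FPKM. Lcn2, an iron-siderophore binder induced in inflammation, had 527, 3739 and 768 FPKM, so its level in replicate 2 was 7.10 times that in replicate 1. Haptoglobin (Hp) had 247, 511 and 189 FPKM, but the complement proteases C1s1 and C1ra varied by factors of 1.25 and 1.26. Over the 15 acute phase and complement genes with a mean of at least 10 FPKM, 7 were highest in replicate 2, 3 in replicate 1 and 5 in replicate 3, and none was stable by the limit given below. As deposited, the share highest in replicate 2, 46.7%, is close to the 46.9% of all genes at that level. With TPM scaling 6 were highest in replicate 2, or 40%, against 18.0% of all genes. Another 6 were then highest in replicate 3, or 40%, against 30.7%. The median transcript length was 2200 bases for this list and 1082 bases for chemokines.

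Cytokines outside the chemokine family were led by osteopontin (Spp1), with 920.2, 1608 and 273 FPKM, and Mif, with 516, 1169 and 701 FPKM. The alarmin Il33 had 209, 308 and 174 FPKM and Csf1, the growth factor of macrophages, had 159.9, 90.5 and 97.9 FPKM. In the IL-6 family, Il6 had 8.91, 47.1 and 41.1 FPKM and Il11 had 15.2, 39.6 and 6.78 FPKM, while Clcf1 was even at 15.8, 17.1 and 16.5 FPKM. Tnf, Il10 and Il1b were under 1 FPKM in every library. Both cyclooxygenase genes were transcribed, Ptgs1 at 187, 186 and 141 FPKM and Ptgs2 at 109, 104 and 63.3 FPKM, with the prostaglandin E synthase Ptges at 57.5, 65.1 and 42.5 FPKM. The heparin-binding growth factor pleiotrophin (Ptn) had 808, 487 and 612 FPKM.

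**Figure D3:**
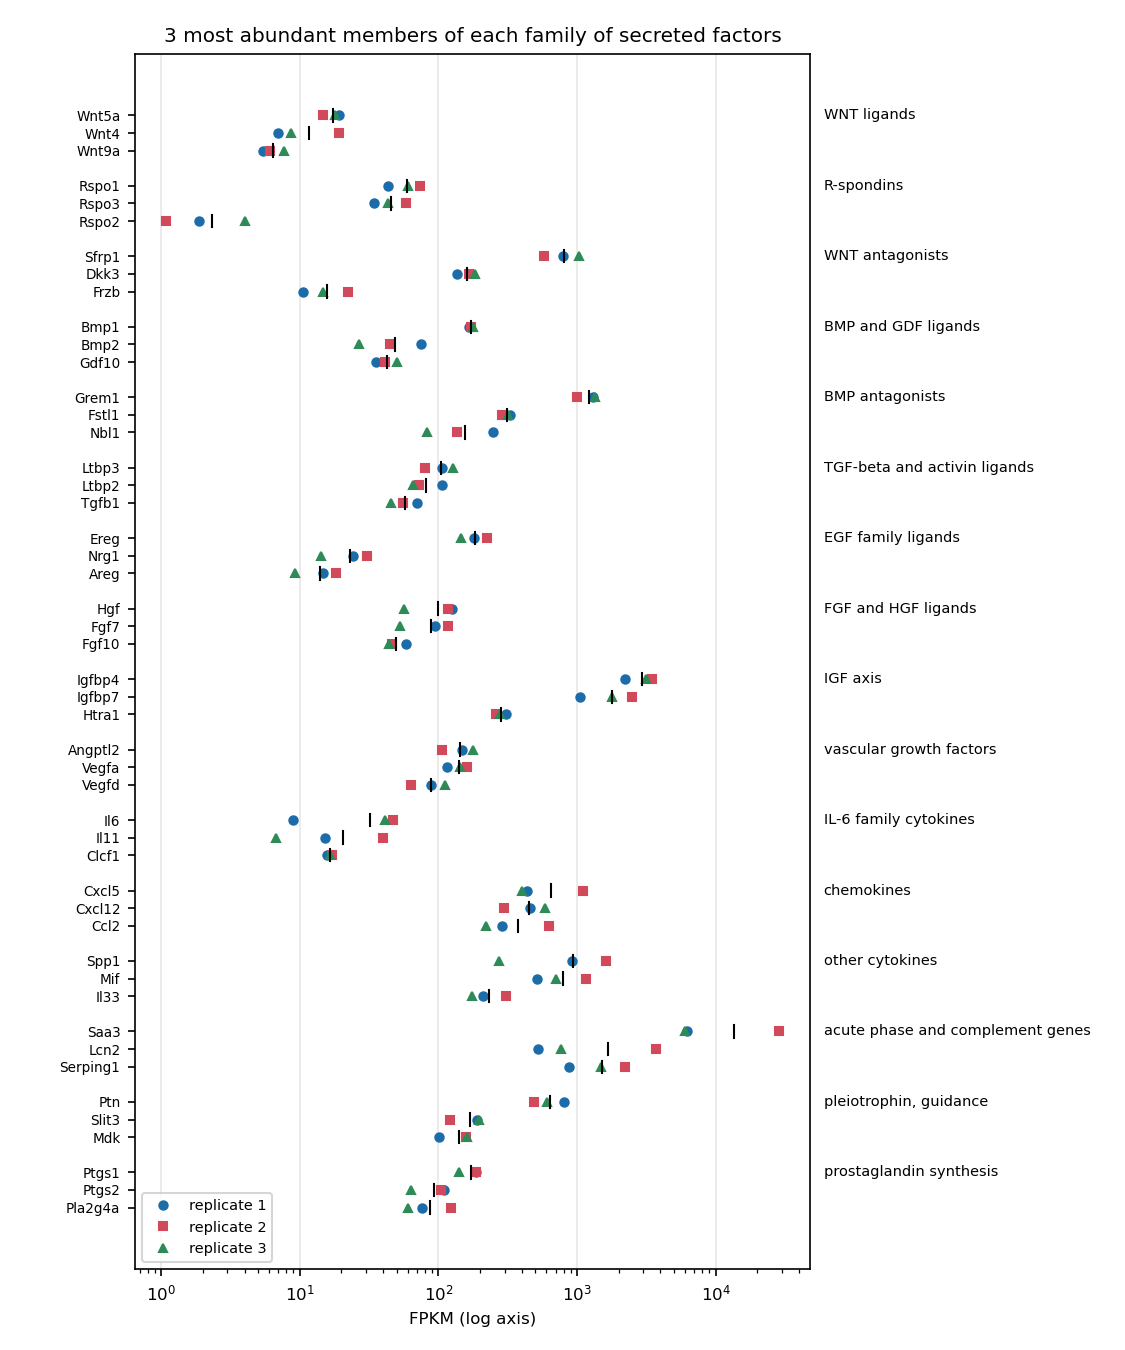
FPKM on a log axis for the 3 most abundant members of each family of secreted factors, with the family named at the right. Symbols are the 3 libraries and the black tick is their mean; Saa3, Lcn2 and Cxcl5 lie highest in replicate 2, while Bmp1 and Clcf1 are nearly even.

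Receptors took 1.40% ± 0.206 of the summed FPKM (SD, n = 3), and 141 of 199 listed genes were detected. Among receptor tyrosine kinases, Fgfr1 had 120.1, 85.3 and 118 FPKM and Axl, the Gas6 receptor, had 121, 80.0 and 105 FPKM, levels in the range of Pdgfra and Pdgfrb. The EGF receptor Egfr had 36.3, 29.6 and 28.3 FPKM, and the HGF receptor Met had at most 2.72 FPKM. Tgfbr2 had 134, 108 and 139 FPKM and its partner Tgfbr1 had 29.1, 32.1 and 25.1 FPKM. The BMP receptors Bmpr1a and Bmpr2 were nearly even between libraries: Bmpr1a had 40.3, 38.4 and 42.8 FPKM and Bmpr2 had 33.4, 27.8 and 27.7 FPKM.

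For WNT, the frizzled receptor Fzd1 had 115, 90.1 and 94.9 FPKM and the co-receptors Lrp5 and Lrp6 had 39.7, 26.8 and 40.7 FPKM and 26.4, 15.6 and 25.1 FPKM. The R-spondin receptor Lgr4 had 3.48, 2.82 and 2.59 FPKM. Of 15 genes on the WNT target list, 8 were detected and 5 had at least 10 FPKM throughout. Ctnnb1, the effector β-catenin itself, stood highest of the list at 232, 279.9 and 195 FPKM. The feedback gene Axin2 had 2.18, 2.25 and 3.78 FPKM, and Lef1 was among the 4 members under 1 FPKM in every library. Hedgehog transduction genes were present, with Smo at 53.5, 47.3 and 57.7 FPKM, whereas the target Gli1 had 0.113, 0.367 and 0.503 FPKM. Notch genes were low, and Notch2 was the highest at 14.9, 7.56 and 15.6 FPKM.

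Cytokine receptors were broadly expressed, 33 of 38 being detected. The TNF receptor Tnfrsf1a had 221, 214 and 233 FPKM, the lymphotoxin receptor Ltbr had 150.5, 135 and 133 FPKM, the IL-1 receptor Il1r1 had 113, 135 and 125 FPKM and the oncostatin M receptor Osmr had 91.3, 86.7 and 94.8 FPKM. As deposited, all 4 stayed within a factor of 1.2 over the libraries, although ligands such as Il6 and Cxcl5 did not. With TPM scaling the factor was 1.37 for Tnfrsf1a and 1.46 for Ltbr, beside 4.42 for Il6 and 2.16 for Cxcl5. Il6st, the signal chain shared by the IL-6 family, had 84.7, 75.2 and 152 FPKM, and Il6ra had 7.03, 2.91 and 3.92 FPKM. Of 35 G protein-coupled receptors 24 were detected, led by the thrombin receptor F2r at 176, 165 and 207 FPKM. The prostaglandin receptor Ptger1 had 29.6, 21.7 and 37.6 FPKM and Ptger4 had 5.72, 6.19 and 2.60 FPKM. Adhesion was represented by the integrin chain Itgb1, at 285, 210.0 and 237 FPKM, and the vascular adhesion molecule Vcam1, at 98.2, 161 and 132 FPKM.

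Matrix genes took 7.70% ± 1.88 of the summed FPKM (SD, n = 3), with 7.11%, 6.19% and 9.80% in replicates 1, 2 and 3. Of 197 listed genes 150 were detected and 47 had at least 100 FPKM throughout. Fibrillar collagens were highest in replicate 3: Col3a1 had 2444, 2215 and 4892 FPKM, Col1a1 had 1376, 1278 and 3989.8 FPKM and Col1a2 had 1035, 1161 and 2573 FPKM. Of the 8 with a mean of at least 10 FPKM, 6 were highest in replicate 3, against 27.6% of all genes, and 6 were lowest in replicate 2, against 30.3%. With TPM scaling these counts were 7 and 8, against 30.7% and 58.5% of all genes. The cartilage collagen Col2a1 had at most 0.0382 FPKM.

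Genes for processing collagen were abundant and more even than the fibrillar collagens. Of 16 with a mean of at least 10 FPKM, 12 were highest in replicate 3, or 75%, against 27.6% of all genes. With TPM scaling 13 were, against 30.7%. Their median ratio of highest to lowest library was 1.38 as deposited, against 2.35 for fibrillar collagens and 1.41 for all genes at that level. The collagen chaperone Serpinh1 had 1018, 1173 and 1547 FPKM, P4hb of prolyl hydroxylase had 435, 460.0 and 404 FPKM and the cross-linking oxidase Loxl1 had 232, 224 and 297 FPKM. Biglycan had 1977, 1999.9 and 3052 FPKM and lumican (Lum) 118, 294 and 329 FPKM. Osteoglycin (Ogn) ranged from 25.3 FPKM in replicate 2 to 232 FPKM in replicate 3. Among adhesive glycoproteins, fibronectin (Fn1) had 795, 429 and 656 FPKM, thrombospondin 1 (Thbs1) had 382, 376 and 449.5 FPKM and tenascin C (Tnc) had 187, 119 and 159.9 FPKM.

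Basement membrane components were transcribed by the stromal cells, and 13 of 18 were detected. Collagen IV was the most abundant, Col4a1 at 545, 451 and 1044 FPKM and Col4a2 at 362, 247 and 626 FPKM, followed by nidogen 1 (Nid1) at 277, 191 and 268 FPKM and the laminin chain Lamb1 at 203, 137 and 183 FPKM. All 11 members with a mean of at least 10 FPKM were lowest in replicate 2, as were 30.3% of all genes at that level, and all 11 remained so with TPM scaling, against 58.5%. Their median transcript length was 6091 bases. The epithelial laminin chains Lama3 and Lamb3 were under 1 FPKM in every library.

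Metalloproteases and their inhibitors were expressed together. Mmp2, a gelatinase, had 516, 496 and 616 FPKM, its activator Mmp14 had 547, 320.1 and 504 FPKM and stromelysin 1 (Mmp3) had 737, 465 and 183 FPKM. Timp2 had 763, 457 and 443 FPKM, and Timp1 had 293, 816 and 173 FPKM, highest in replicate 2. Serpine2, protease nexin 1, had 767, 1529 and 563 FPKM. Of 24 metalloprotease genes with a mean of at least 10 FPKM, 4 varied by a factor of at least 4, or 16.7% against 1.79% of all genes at that level.

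**Figure D4:**
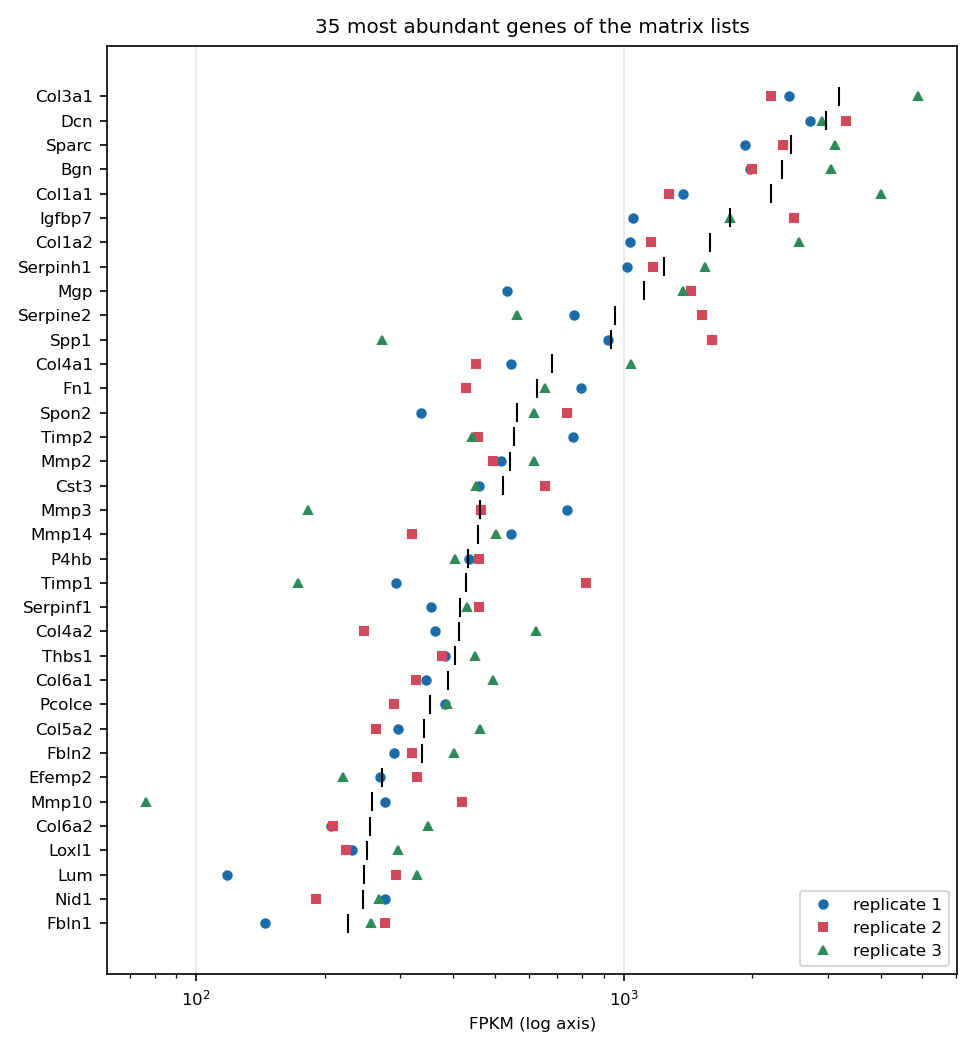
FPKM on a log axis for the 35 most abundant genes of the matrix lists, ordered by their mean. Symbols are the 3 libraries and the black tick is their mean; Col3a1, Col1a1 and Col1a2 lie highest in replicate 3, and Mmp2 and P4hb are nearly even.

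Among the lists of intracellular genes, that of cytosolic ribosomal proteins held the largest share. The 86 cytosolic ribosomal protein genes held 12.5% ± 2.43 of the summed FPKM (SD, n = 3), and 81 of the 82 with a mean of at least 10 FPKM were highest in replicate 2, or 98.8%, against 46.9% of all genes at that level. With TPM scaling 80 were highest there, against 18.0% of all genes. Their median transcript length was 937 bases. Of 22 glycolysis and hypoxia genes, 19 were highest in replicate 2, or 86.4% against 46.9% of all genes, and 20 were lowest in replicate 1, or 90.9% against 24.6%. With TPM scaling these counts were 11 and 16, or 50% against 18.0% of all genes and 72.7% against 9.83%. Gapdh had 1541, 2901 and 1995 FPKM. The metallothionein Mt1 had 558, 916 and 298 FPKM. Of 30 cell cycle genes 29 were detected and 12 had at least 10 FPKM throughout. The proliferation marker Mki67 had 2.97, 2.74 and 3.22 FPKM, while the cell cycle inhibitors Cdkn1a and Cdkn2a had 263, 263 and 149 FPKM and 61.3, 58.9 and 24.6 FPKM. YAP/TAZ targets included Ccn1 at 185, 154 and 329.8 FPKM and Ccn2 at 156, 70.2 and 98.5 FPKM, and 10 of 11 with a mean of at least 10 FPKM were lowest in replicate 2, or 90.9% against 30.3% of all genes. With TPM scaling all 11 were, against 58.5%.

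Immediate early genes, which are transcribed within minutes of a stimulus, differed between libraries. Fos had 153, 415 and 836 FPKM, the zinc finger factor Egr1 had 236, 293 and 993 FPKM and Nr4a1 had 25.1, 69.9 and 338 FPKM. All 3 were highest in replicate 3 and lowest in replicate 1, except that Egr1 was lowest in replicate 2 with TPM scaling. Of 21 members with a mean of at least 10 FPKM, 15 were highest in replicate 3, or 71.4% against 27.6% of all genes at that level. With TPM scaling 16 were, or 76.2% against 30.7%. Of the same members 8 varied by a factor of at least 4, or 38.1%, against 1.79% of all genes at that level. Their median transcript length was 2553 bases.

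**Figure D5:**
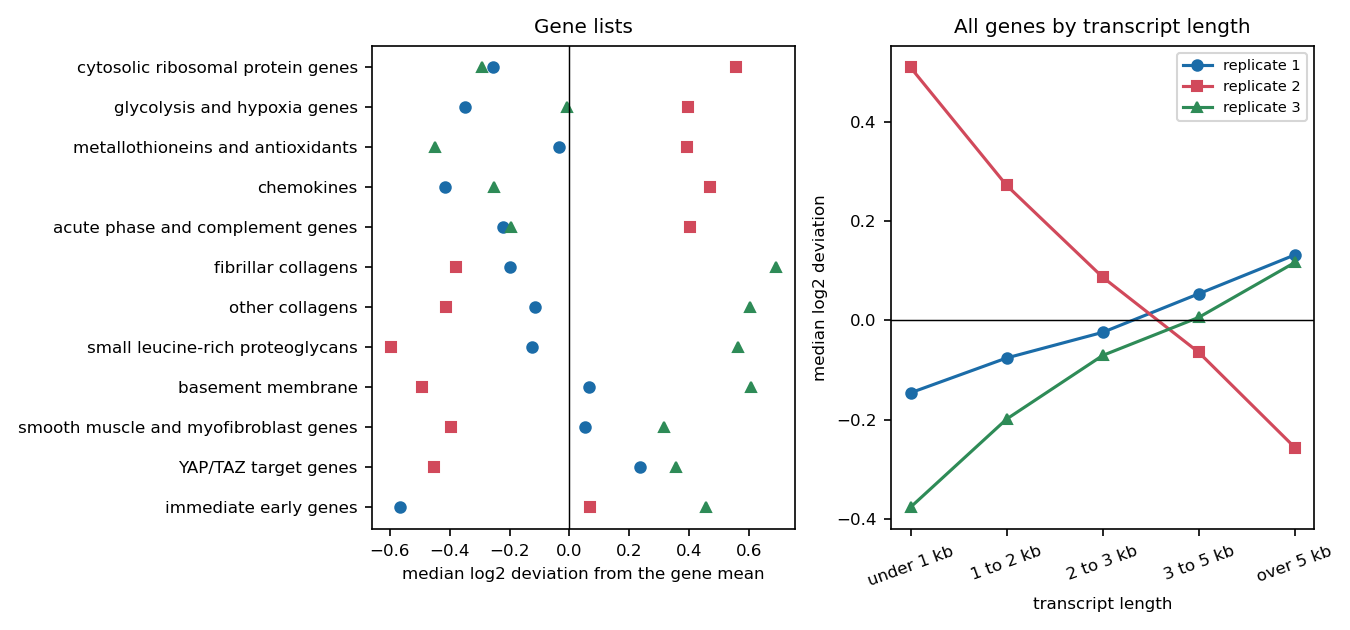
Median deviation of each library from the gene's mean over the 3 libraries, in log2(FPKM + 0.1), for genes with a mean of at least 10 FPKM, by gene list (left) and by transcript length (right). Replicate 2 (square) lies at 0.56 for ribosomal protein genes and at -0.38 for fibrillar collagens, and its deviation declines with transcript length, while replicate 3 (triangle) is highest for collagens and immediate early genes.

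Stability was described for the 6602 genes with a mean of at least 10 FPKM. A gene is called stable where its highest library was at most 1.2 times its lowest, and variable where it was at least 4 times. The ratio had a median of 1.41 and quartiles of 1.23 and 1.72. By these limits 1321 genes, 20.0%, were stable and 118, 1.79%, were variable. Of the variable genes 17 were highest in replicate 1, 43 in replicate 2 and 58 in replicate 3, beside the 25.4%, 46.9% and 27.6% of all genes given above.

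The 10 most even genes with a mean of at least 50 FPKM had ratios of 1.01 to 1.04 and included Tfg, Gnb1, Fam89b, Ckap4, Scd2, Prpsap1, Sgta, Eif4g2 and Tapbp. Tfg, which acts at the exit sites of the endoplasmic reticulum, had 72.4, 72.5 and 71.8 FPKM. Gnb1, a G protein β subunit, had 123, 124 and 122 FPKM and Scd2, a fatty acid desaturase, had 109, 108 and 110.3 FPKM. TPM scaling widened all 10 ratios, for example to 1.31 for Tfg, and left 865 stable genes, of which 161 were among the 1321. Median-of-ratios scaling kept 1267 of the 1321, but its factors were 1.006, 0.994 and 1.009 for replicates 1, 2 and 3. The deposited values were thus already nearly on that scale, and this setting is no separate check. Which genes count as stable thus depends on the scaling.

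By list, cholesterol and fatty acid synthesis held 7 stable genes of 19, 36.8%, including the regulators Srebf1 and Srebf2. Cytokine receptors held 7 of 24, 29.2%, against 20.0% of all genes at that level. As deposited, the cytokine receptors also held 3 variable genes, 12.5%, against 1.79% of all genes. These were Il13ra2, Tnfrsf21 and Cntfr, with ratios of 7.87, 6.56 and 4.10. No ribosomal protein gene of 82, no metalloprotease of 24 and no acute phase gene of 15 was stable. All counts of stable genes by list are for the deposited values only. With TPM scaling the ratio of Srebf2 rose from 1.06 to 1.39, so the order of the lists may also depend on the scaling. Actg1, the cytoplasmic γ-actin, was the most even of the 30 most abundant genes, at 1392, 1323 and 1359.8 FPKM, a ratio of 1.05 that became 1.39 with TPM scaling.

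The 10 most variable genes with a mean of at least 50 FPKM differed in which library stood out. Mfap4, a microfibril-associated protein, had 4.76, 33.1 and 232 FPKM and Thbs4, a thrombospondin of muscle and tendon, had 21.4, 206 and 339.5 FPKM, both lowest in replicate 1. The chitinase-like Chil1 had 2.11, 245 and 61.9 FPKM and the tachykinin gene Tac2 had 2.11, 139 and 61.6 FPKM, highest in replicate 2. Cck, the gene of the peptide cholecystokinin, ran the other way with 147, 75.4 and 9.63 FPKM. Nr4a1, Hist1h2bf and U90926 were also among them. Rpl34-ps1 and Gm12191 had 222 and 264 FPKM in replicate 1 and at most 3.64 FPKM in the others, but pseudogenes and predicted genes can take reads from near-identical parents.

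Between libraries, the median absolute log2 difference over genes with a mean of at least 10 FPKM was 0.30 for replicate 2 against 1, 0.24 for 3 against 1 and 0.39 for 3 against 2. More than 2-fold apart were 326, 348 and 631 genes in these pairs. Spearman's rho across genes, which are not independent replicates, was 0.964 to 0.967 for the 3 pairs.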

How the data were processed

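RNA was purified by poly-T beads after extraction with a micro-scale column kit, per the labels' protocols. The authors deposited FPKM values for 24930 genes. The submitters' processing notes list mm9 as the build, DESeq2 1.40.1 and kallisto 0.46.1, and give no role for each. The step that gave FPKM was not stated. The 3 columns of stromal cells grown alone were read, and 5 columns of other libraries were not used. Values were taken as deposited, and errors are SD over 3 libraries. No test was run, as there is 1 group. Genes were named by these rules: the 30 highest by median, the 4 markers, the top 3 of each list with further members as examples, and the 10 most even and 10 most variable with a mean of at least 50 FPKM. Other list members with a mean under 10 FPKM that are not defining markers were picked with their values in view. Some genes that these rules select are not reported here. The 64 gene lists hold 1175 genes, 16 of them absent from the table used here. Of these, 15 are mitochondrially encoded genes, not analysed here. The ribosomal list was narrowed to cytosolic proteins after seeing the data. Transcript length is the longest coding transcript of GENCODE M21, matched for 97.1% of 6602 genes. Gene members and lists were chosen with earlier results of these data known. Scripts were tested on simulated data (python 3.11.15, pandas 2.3.3, numpy 2.4.6). The alternatives were other detection limits, filters, scalings and leaving out each library.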

Additional observations from a re-analysis of the deposited data

How the results depend on the processing

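No paired analysis was possible because the results come from no test and from 1 group. Detected genes numbered between 8169 and 12456 under other limits, 11683 to 11791 with a library left out. The secreted share was 4.59% without Saa3, and 5.67% to 7.81% with a library left out. The number of stable genes was 865 with TPM scaling, 262 with a mean of at least 50 FPKM, 2310 with no filter and 3891 with a limit of 1.5. With a library left out it was 2291 to 3603, highest without replicate 2. The number of variable genes was 205 with a mean of at least 5 FPKM, 36 with at least 50, 4002 with no filter, 224 with a limit of 3 and 76 with a limit of 5. With a library left out it was 31 without replicate 3, 62 without replicate 1 and 79 without replicate 2. Leaving out a library compares 2 values in place of 3, so ratios can only narrow. The filters change how many genes are compared, 6602 with a mean of at least 10 FPKM and 1704 with at least 50. Counts under different filters are therefore not shares of the same total. Equal totals without Saa3, an alternative chosen after seeing the data, gave 935 stable and 123 variable genes. Leaving out predicted, clone, pseudogene and histone genes, chosen likewise, gave 1302 and 111. Of 198 named genes, the levels of 8 moved by more than their spread under TPM scaling. Median-of-ratios scaling moved 0, but its factors of 1.006, 0.994 and 1.009 for replicates 1, 2 and 3 hardly change the values. Leaving out 1 of 3 libraries cannot move a mean by as much as the SD of the 3. The 0 found for those settings was therefore fixed in advance. Of 62 list shares, 2 moved by more than their spread without Saa3. No count behind the FPKM is known, so no depth limit can be set for low values.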
